A study of Mus musculus with 10 samples.

Results

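Auts2, Rint1, Khdrbs2 and Apbb2 were described here in mouse cortical neuron cultures that had received the transcription factor gene Gata1. These 4 genes were picked because their mRNA was among the most reduced in the Gata1 library in an earlier look at the same tables. They are 4 of 40904 gene symbols and of 12246 named genes that could be compared (a mean of at least 1 FPKM over both libraries, without predicted genes, clones or genes of small RNAs). The members were found by their symbol, and each has 1 row in each table, so there is no second row to report.

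The cultures were primary cortical neurons from embryonic day 14 ICR mice, taken at day 11 in vitro after AAV-Gata1 or AAV-Control, an adeno-associated virus carrying Gata1 or a control virus. Both groups share strain, tissue and age, and the labels give neither the promoter of the viral gene nor the number of animals behind a culture. The series lists 10 samples, and the 2 mRNA libraries, 1 Gata1 and 1 control, hold all the values below. With 1 library per group no difference has a replicate check, none was tested, and the differences that chose the members are given as a description.

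GATA1 is a zinc finger transcription factor best known for red cell and platelet development, where it binds short GATA motifs. AUTS2 works in the nucleus within a noncanonical Polycomb repressive complex 1 that is linked to active transcription, and in the cytoplasm through the small GTPase Rac1 in neuronal migration and neurite growth; the human gene is disrupted in a syndrome of autism and intellectual disability. RINT1 joins ZW10 and NBAS in a tether that receives COPI vesicles returning from the Golgi to the endoplasmic reticulum. KHDRBS2, also called SLM1, is a STAR family RNA-binding protein of neurons that regulates alternative splicing, and APBB2, also called FE65L1, is an adaptor that binds the cytoplasmic tail of the amyloid precursor protein.

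The promoters of the members are shown because Gata1 was the gene delivered. The RefSeq table (GRCm38.p6) holds 4 entries for 3 of the 4 genes, Rint1, Khdrbs2 and Apbb2, each running from 250 bases before to 50 bases after a start site. They were searched on both strands for the 4 forms of the GATA motif, which were AGATAA, its variant AGATAG, then TGATAA as another form, as well as TGATAG, and capitals mark a match. The first line is Rint1 (chr5:23787461-23787760, plus strand), the second Khdrbs2 (chr1:32172472-32172771, plus strand) and the third the upstream entry of Apbb2 (chr5:66618768-66619067, minus strand), each written along the gene's own strand.
Rint1: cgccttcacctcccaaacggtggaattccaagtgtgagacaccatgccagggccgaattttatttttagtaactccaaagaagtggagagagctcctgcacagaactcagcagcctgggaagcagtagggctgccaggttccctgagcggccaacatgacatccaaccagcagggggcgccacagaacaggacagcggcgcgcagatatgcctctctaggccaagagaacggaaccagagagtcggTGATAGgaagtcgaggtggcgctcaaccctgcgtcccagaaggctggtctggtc
Khdrbs2: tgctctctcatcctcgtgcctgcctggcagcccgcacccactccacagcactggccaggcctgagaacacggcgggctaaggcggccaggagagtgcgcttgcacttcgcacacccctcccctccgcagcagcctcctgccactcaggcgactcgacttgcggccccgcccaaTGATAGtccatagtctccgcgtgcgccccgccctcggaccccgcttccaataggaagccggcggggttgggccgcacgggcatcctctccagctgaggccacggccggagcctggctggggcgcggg
Apbb2: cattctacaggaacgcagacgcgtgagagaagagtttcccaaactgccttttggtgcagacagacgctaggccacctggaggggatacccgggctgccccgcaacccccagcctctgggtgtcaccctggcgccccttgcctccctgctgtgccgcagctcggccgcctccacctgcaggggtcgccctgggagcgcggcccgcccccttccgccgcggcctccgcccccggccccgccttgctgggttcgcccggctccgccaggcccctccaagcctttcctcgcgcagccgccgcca
The Rint1 and Khdrbs2 windows each held 1 match, TGATAG on the gene's own strand. In Rint1 it began 4 bases before the start site and ran across it, and in Khdrbs2 it began 77 bases before it. Neither Apbb2 entry held one of the 4 motifs. Of all 32851 promoter entries of the same length in the table, 29.8% held at least 1 match, so a match is common. The GC content was 57.3% in the Rint1 window, 70.3% in the Khdrbs2 window and 72.0% in the printed Apbb2 window, against a median of 52.7% over all entries.

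The delivered gene, Gata1, had 2.07 FPKM in the Gata1 library and was listed at 0 in the control library, the direction the labels give. Its level was low, with 11358 of the 12246 named genes above it in the Gata1 library. FPKM are fragment counts scaled to transcript length and to the mapped fragments of a library. The tables summed to 476848 FPKM in the Gata1 library and 476398 FPKM in the control library, and the number of fragments behind them is unknown. The libraries were close once 1 FPKM was added to each value, which draws low values together. On that scale 94.8% of the named genes lay within 1.2-fold, and the median log2 ratio was -0.013. Cell type markers placed the cultures as mixed. Neuronal markers were present, with 10 of 11 lower in the Gata1 library (summed level 818 FPKM in the Gata1 library and 855 FPKM in the control library). Excitatory neuron markers had 6 of 7 lower, and inhibitory neuron markers 3 lower and 3 higher. Over all named genes 54.9% were lower. Astrocyte markers were abundant (2064 FPKM in the Gata1 library and 2065 FPKM in the control library), and all 9 measured microglia markers were higher (526 FPKM in the Gata1 library and 447 FPKM in the control library, over 10 markers with none at 0). P2ry12, the other microglia marker, was under 1 FPKM and lower (0.117 FPKM in the Gata1 library, 0.178 FPKM in the control library). Of 6 pericyte and fibroblast markers the 3 whose mean reached 1 FPKM were lower and the 3 under it higher (summed level of all 6, 83.4 FPKM in the Gata1 library and 99.7 FPKM in the control library). Of 7 oligodendrocyte lineage markers 5 were lower (217 FPKM in the Gata1 library and 230 FPKM in the control library). The 5 erythroid markers used summed to 3.37 FPKM in the Gata1 library and 3.30 FPKM in the control library. The part of these markers in the differences below was not tested, and in bulk RNA fewer cells of a type and less RNA per cell cannot be told apart.

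Auts2 was the most abundant of the 4 and had the largest difference. It stood at 9.57 FPKM in the Gata1 library, against 24.98 FPKM in the control library. The Gata1 value was 38.3% of the control value, or 2.61-fold lower. On the scale used to compare genes, log2 of the ratio after adding 1 FPKM to each value, the difference was -1.30. Adding 1 FPKM draws low values together, so this scale understates the difference of low genes.

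Rint1, the tether subunit, stood at 6.21 FPKM in the Gata1 library and 16.16 FPKM in the control library. That is 38.4% of the control value, 2.60-fold lower, with a log2 ratio of -1.25. Auts2 and Rint1 thus had nearly the same proportional difference from control levels that were themselves apart.

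Khdrbs2 had the lowest level of the 4, at 2.80 FPKM in the Gata1 library and 6.41 FPKM in the control library. Its Gata1 value was 43.7% of the control value, or 2.29-fold lower, and its log2 ratio was -0.96. Apbb2 stood at 7.04 FPKM in the Gata1 library and 14.42 FPKM in the control library. This was 48.8% of the control value, 2.05-fold lower, with a log2 ratio of -0.94. All 4 genes were thus still detected in the Gata1 library, at between 38.3% and 48.8% of their control value.

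**Figure D1:**
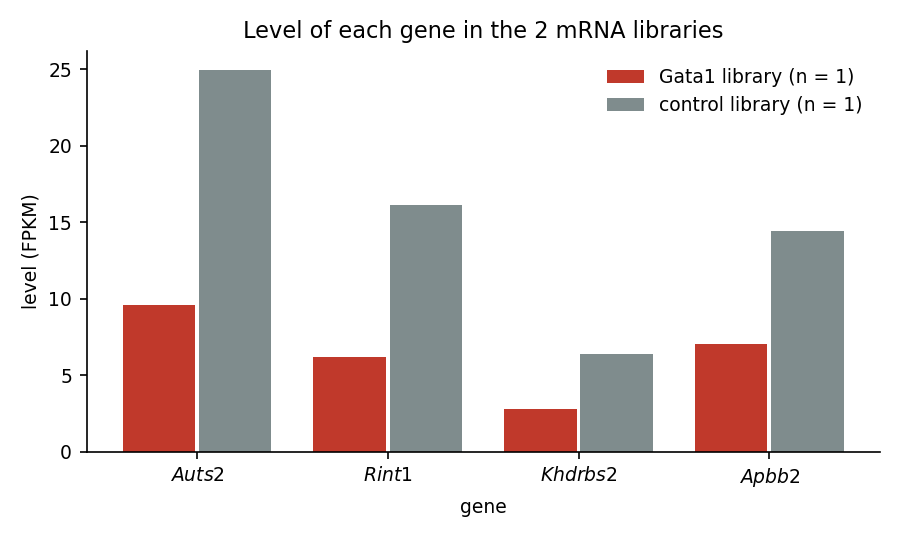
Bars give the FPKM of each gene in the Gata1 library and the control library, with 1 library each and so no error bars. Each gene is lower in the Gata1 library, from 2.05-fold for Apbb2 to 2.61-fold for Auts2.

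The order of the levels changed by 1 exchange between the libraries. In the Gata1 library it was Auts2, Apbb2, Rint1, Khdrbs2 from high to low, with Apbb2 above Rint1 (7.04 and 6.21 FPKM). In the control library it was Auts2, Rint1, Apbb2, Khdrbs2, with Rint1 above Apbb2 (16.16 and 14.42 FPKM). Without replicates it cannot be said which neighbours in these orders differ beyond their spread. FPKM is per transcript length, which allows levels of different genes to be set side by side only roughly. How transcripts were combined into the FPKM of a gene is not stated.

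Set among the 12246 named genes, Auts2 stood at the 37.7th percentile of level in the Gata1 library and at the 68.1st in the control library. Rint1 stood at the 25.8th in the Gata1 library and the 53.8th in the control library. Apbb2 stood at the 28.7th in the Gata1 library and the 50.3rd in the control library. Khdrbs2 took place 10900 of 12246 from the highest in the Gata1 library and place 9037 in the control library. In the control library Auts2, Rint1 and Apbb2 thus lay at or above the middle of the named genes, whereas Khdrbs2 lay in the lower part of the range.

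On the log2 scale 2 of the 4, Auts2 and Rint1, were at least 2-fold lower, a rule of size that 7 of the 12246 named genes met (0.0572%). In plain FPKM ratios all 4 were at least 2-fold lower, as were 18 of 12245 named genes above 0 in the control library (0.147%). The members were chosen by this contrast, so nothing is read from their count. Khdrbs2 and Apbb2 lay just inside 2-fold on the log2 scale.

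Genes of similar level (a mean within 2-fold of the member's) give the scatter between these libraries. Around Auts2 there were 5210 other named genes, of which the central 95% had log2 ratios between -0.24 and 0.21. The range was -0.26 to 0.24 around Rint1, -0.33 to 0.30 around Khdrbs2 and -0.26 to 0.24 around Apbb2. The members were chosen for ratios outside such ranges, so their place below them is not a result.

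**Figure D2:**
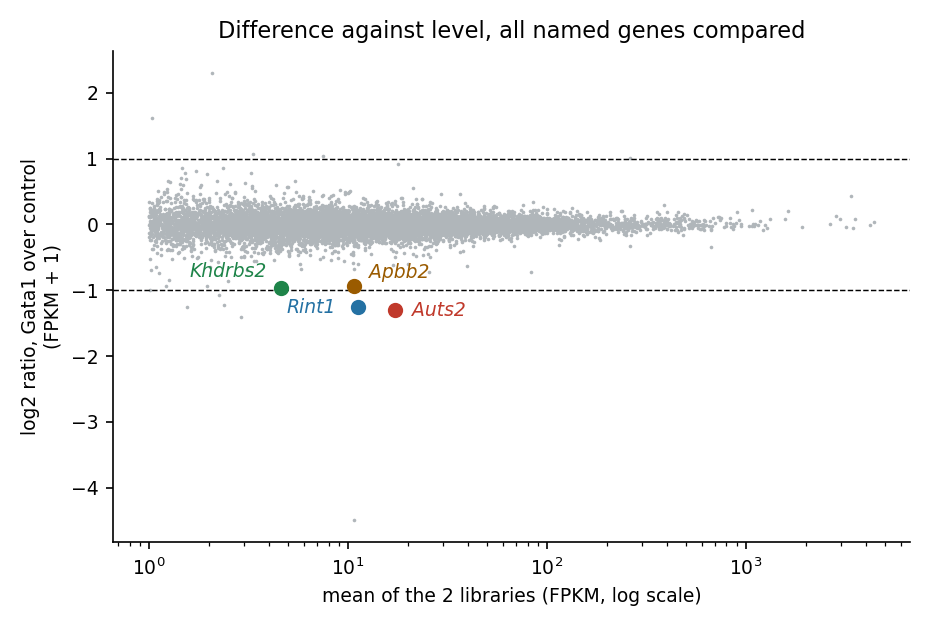
Each point is a named gene, with the mean FPKM of both libraries on a log axis against the log2 ratio of Gata1 over control. The coloured points are the 4 genes, at -1.30, -1.25, -0.96 and -0.94, and dashed lines mark 2-fold.

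Among the 9814 named genes that reached 5 FPKM in either library, the members took places 2 to 5 in the order from the lowest log2 ratio. Only Dlx6os1, a noncoding gene beside Dlx5 and Dlx6, came before them. Its kept row was listed at 0 in the Gata1 library and at 21.5 FPKM in the control library, while its other row stood at 10.7 FPKM in the Gata1 library and 9.90 FPKM in the control library. After Apbb2 at -0.94, the next values were -0.73 for Atf7ip, -0.73 for Fam134a and -0.68 for Stag3. Atf7ip stood at 19.0 FPKM in the Gata1 library and 32.2 FPKM in the control library. Without the level of 5 FPKM, Eif3s6-ps2 also lay ahead of Auts2, and B3gnt2, Rpsa-ps2, Sp140 and Opn1sw lay between Auts2 and Khdrbs2.

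The genes whose log2 ratio was nearest to each member, over these 2 libraries, were partly the members themselves. B3gnt2 was nearest to Auts2 (-1.26 against -1.30) and to Rint1 (-1.26 against -1.25), and stood at 0.508 FPKM in the Gata1 library and 2.60 FPKM in the control library. Auts2 and Rint1 were also among each other's 3 nearest, as was Rpsa-ps2, at -1.23, for both. ZBED6 (1.03 FPKM in the Gata1 library and 2.89 FPKM in the control library) and Appbp2os were nearest to Apbb2, both at -0.94. Apbb2 was nearest to Khdrbs2, followed by ZBED6 and Appbp2os. With 2 libraries such likeness is only a match of 1 ratio.

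The partners of the members are described beside all named genes. Across 11 lists of relatives, complex partners and targets, 83 genes were measured. Of these 50 were lower and 33 higher in the Gata1 library, with a median log2 ratio of -0.020, and none was 2-fold apart. Over all named genes 54.9% were lower, with a median of -0.013. On the same scale 7 of the 12246 named genes (0.0572%) were at least 2-fold lower and 5 at least 2-fold higher. None among 83 partners is thus near the share over all genes, and nothing is read from it. The partners' log2 ratios ran from -0.20 to 0.23.

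For AUTS2, both paralogs were close to equal. Fbrsl1 stood at 15.5 FPKM in the Gata1 library and 15.6 FPKM in the control library, and Fbrs at 14.8 FPKM in the Gata1 library and 15.3 FPKM in the control library. The 10 partners in the noncanonical Polycomb complex were evenly split, 5 lower and 5 higher, at a median of 0.0039. Pcgf3 and Pcgf5, the RING finger subunits that define the complexes holding AUTS2, stood at 12.7 and 7.26 FPKM in the Gata1 library and at 13.3 and 6.72 FPKM in the control library. Rnf2, the catalytic ubiquitin ligase, had the largest log2 ratio of the 10, at 0.15 (28.3 FPKM in the Gata1 library, 25.3 FPKM in the control library). Ep300, the acetyltransferase that AUTS2 recruits, stood at 12.2 FPKM in the Gata1 library and 12.6 FPKM in the control library.

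Of 15 other Polycomb repressive complex 1 genes 8 were lower and 7 higher, at a median of -0.043. Bcor, a subunit of the complexes built on Pcgf1, had the highest log2 ratio of all partner genes (8.88 FPKM in the Gata1 library, 7.42 FPKM in the control library), and Pcgf2 the lowest (19.0 FPKM in the Gata1 library, 22.0 FPKM in the control library). On the cytoplasmic side, Rac1 and its activators were measured in 5 genes, 2 lower and 3 higher, at a median of 0.032. Prex1, an exchange factor for Rac, stood at 23.2 FPKM in the Gata1 library and 25.0 FPKM in the control library, and Rac1 at 256 FPKM in the Gata1 library and 241 FPKM in the control library.

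For RINT1, the other tether subunits stayed near equality. Zw10 stood at 7.86 FPKM in both libraries, and Nbas at 6.42 FPKM in the Gata1 library and 6.92 FPKM in the control library. The largest difference in this list of 8 was that of Stx18, the endoplasmic reticulum SNARE to which the tether binds, at -0.15 (22.0 FPKM in the Gata1 library, 24.6 FPKM in the control library). Rad50, the DNA repair gene whose product gave RINT1 its name, stood at 3.92 FPKM in the Gata1 library and 3.56 FPKM in the control library. The list held 5 lower and 3 higher genes, at a median of -0.014. The 9 COPI coat genes, which encode the vesicle coat, had a median of -0.013, with 6 lower and 3 higher and log2 ratios between -0.090 and 0.056. Copa had the lowest of them (71.4 FPKM in the Gata1 library, 76.1 FPKM in the control library). The 12 genes of the COG and GARP tethers of the Golgi had 7 lower and 5 higher, at a median of -0.043. Vps52 was lowest, at 51.2 FPKM in the Gata1 library and 56.0 FPKM in the control library. Rint1 itself had a lower level than Zw10 in the Gata1 library (6.21 and 7.86 FPKM) and a higher one in the control library (16.16 and 7.86 FPKM).

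For KHDRBS2, its STAR family relatives were far more abundant than it and near equal. Khdrbs1, which encodes SAM68, stood at 60.9 FPKM in the Gata1 library and 59.6 FPKM in the control library, and Khdrbs3, which encodes SLM2, at 64.5 FPKM in the Gata1 library and 66.4 FPKM in the control library. Qk, the quaking gene of glia, stood at 172 FPKM in the Gata1 library and 170 FPKM in the control library. Among 4 genes whose transcripts SLM proteins are known to splice, 2 were lower and 2 higher, at a median of 0.016. Nrxn2 stood at 84.7 FPKM in the Gata1 library and 89.2 FPKM in the control library, and Nrxn3 stood at 12.1 FPKM in the Gata1 library and 11.6 FPKM in the control library. These are levels of whole genes, and exon use was not analysed here.

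For APBB2, the neuronal relative Apbb1, which encodes FE65, stood at 79.3 FPKM in the Gata1 library and 78.9 FPKM in the control library, well above Apbb2 in both. The 3 X11 adaptor genes, Apba1, Apba2 and Apba3, which also bind the tail of the amyloid precursor protein, had log2 ratios between -0.12 and -0.025. Of 10 ligands and nuclear partners 8 were lower and 2 higher, at a median of -0.052. App stood at 245 FPKM in both libraries, Aplp2 at 154 FPKM in the Gata1 library and 163 FPKM in the control library, and Tfcp2, a transcription factor gene, at 11.97 FPKM in the Gata1 library and 10.61 FPKM in the control library. Tfcp2 had the largest log2 ratio of this list, at 0.16.

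**Figure D3:**
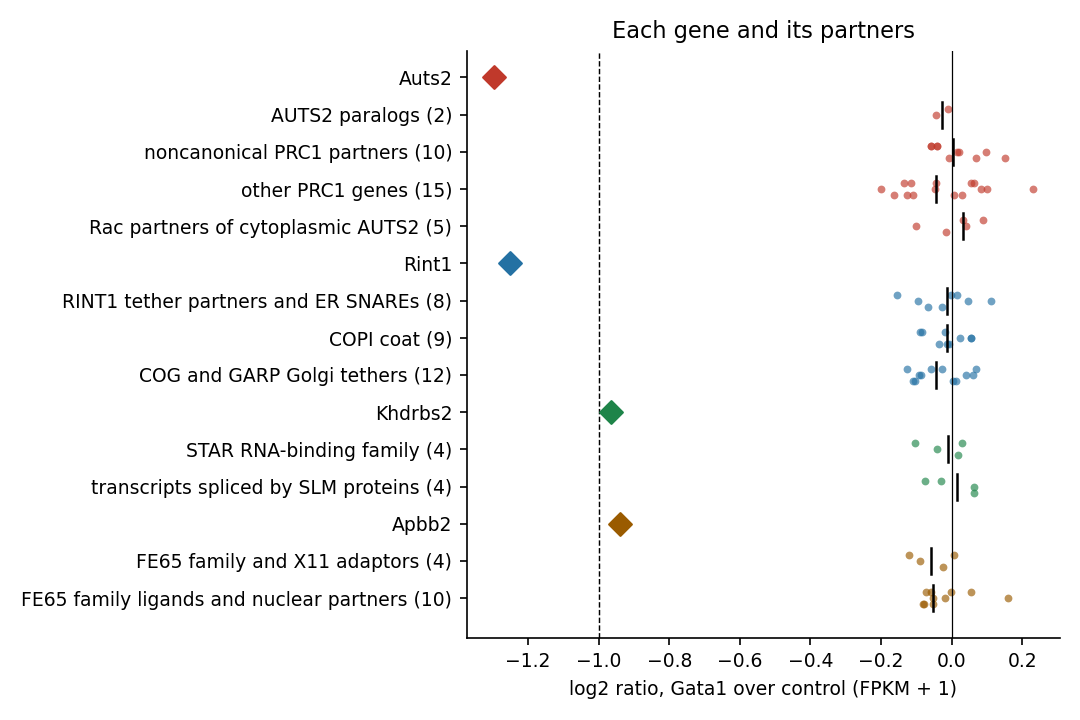
Diamonds give the log2 ratio of Gata1 over control for each of the 4 genes, and dots give those of its relatives, complex partners and targets, with the number of genes in brackets and black bars at list medians. The dots lie between -0.20 and 0.23, whereas the diamonds lie between -1.30 and -0.94.

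Auts2, Rint1 and Apbb2 lie on chromosome 5 and Khdrbs2 on chromosome 1, in the RefSeq annotation of GRCm38.p6. The 3 nearest measured genes on each side of a member were 24 in all. Their distance from the member ran from 3.99 kb (Pus7, Rint1) to 6338 kb (Bai3, Khdrbs2), so many are not close by. They had a median log2 ratio of -0.0095, with 14 lower and 10 higher, and none was 2-fold apart on this scale. Over all named genes the share at least 2-fold lower was 0.0572%, so none among 24 is near that share. Beside Auts2, Wbscr17 stood at 6.77 FPKM in the Gata1 library and 7.58 FPKM in the control library, and Caln1, a calcium-binding protein gene, had the lowest value of the 24, at -0.26 (8.89 FPKM in the Gata1 library, 10.8 FPKM in the control library). Beside Rint1, Pus7, a pseudouridine synthase gene, stood at 12.8 FPKM in the Gata1 library and 14.3 FPKM in the control library, and Tomm7, of the mitochondrial import pore, at 76.7 FPKM in the Gata1 library and 72.8 FPKM in the control library.

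For Khdrbs2, the nearest measured genes were Ptp4a1, a phosphatase gene, at 0.16, and Prim2, a DNA primase gene, at -0.11. They lie 1223 kb and 749 kb from it. Beside Apbb2, the neighbour Rbm47, an RNA-binding protein gene, went the other way, at 2.17 FPKM in the Gata1 library and 0.760 FPKM in the control library (log2 ratio 0.85), the highest of the 24. In plain FPKM this is 2.86-fold higher. On the other side Uchl1, the neuronal ubiquitin hydrolase gene, stood at 272 FPKM in the Gata1 library and 275 FPKM in the control library.

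**Figure D4:**
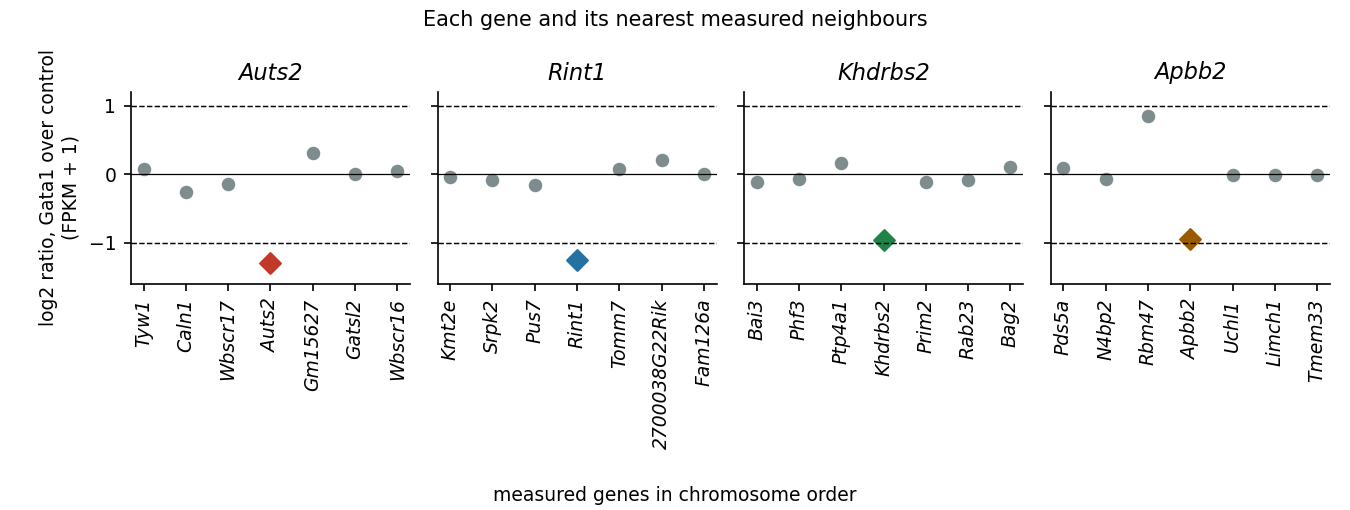
Each panel shows 1 of the 4 genes as a diamond between its 3 nearest measured neighbours on each side, in chromosome order, by the log2 ratio of Gata1 over control, with dashed lines at 2-fold. The 24 neighbours lie between -0.26 and 0.85, and Rbm47 beside Apbb2 is the highest.

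Genes that overlap a member can take or lend reads where fragments are not assigned by strand, and no source used here gives the strand setting. Rint1 overlaps no annotated gene. Apbb2 overlaps Nsun7, a methyltransferase gene at 1.54 FPKM in the Gata1 library and 1.77 FPKM in the control library. It also overlaps 1 noncoding gene without a row matched here. Khdrbs2 overlaps 5 small or predicted genes, of which 3 had a row. Gm25814 and Gm24732 were at 0 in both libraries, and Gm5415 stood at 0.0131 FPKM in the Gata1 library and 0.0254 FPKM in the control library. Auts2 overlaps 1 noncoding gene, without a row matched here. Among the overlapping genes with a row only Nsun7 was above 1 FPKM, and a sharing of reads was not tested.

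Gene span, from the first to the last annotated base, was large in 3 of the 4. Auts2 spans 1106 kb, and 35 of 12200 annotated named genes are longer. Khdrbs2 spans 533 kb, with 167 longer genes, and Apbb2 320 kb, with 421 longer. Rint1, at 35.9 kb, lies at the 60.7th percentile. RefSeq lists 1 transcript for Auts2, 4 for Rint1, 4 for Khdrbs2 and 23 for Apbb2. How transcripts were combined into the FPKM of a gene is not stated in those sources. No annotated microRNA gene lies inside any of the 4.

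Long genes as a class can be described beside the members, which were themselves chosen for their low ratios. The 419 other named genes at least as long as Apbb2 had a median log2 ratio of -0.053, and none was 2-fold lower on this scale. Of all 12246 named genes 7 were (0.0572%), so none among 419 is near that share. Of these 273 were lower (65.2%) and 146 higher, while over all named genes 54.9% were lower. The lowest of them, Nkain2, stood at 13.1 FPKM in the Gata1 library and 20.5 FPKM in the control library (log2 ratio -0.61). With all annotated named genes sorted by span into 10 groups of 1220, the median was -0.033 in the longest group and 0.0068 in the shortest, and lay between these values in the other groups. In the longest group 63.6% of genes were lower, and in the shortest 47.8%. The part of gene span in the differences of the members was not tested.

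**Figure D5:**
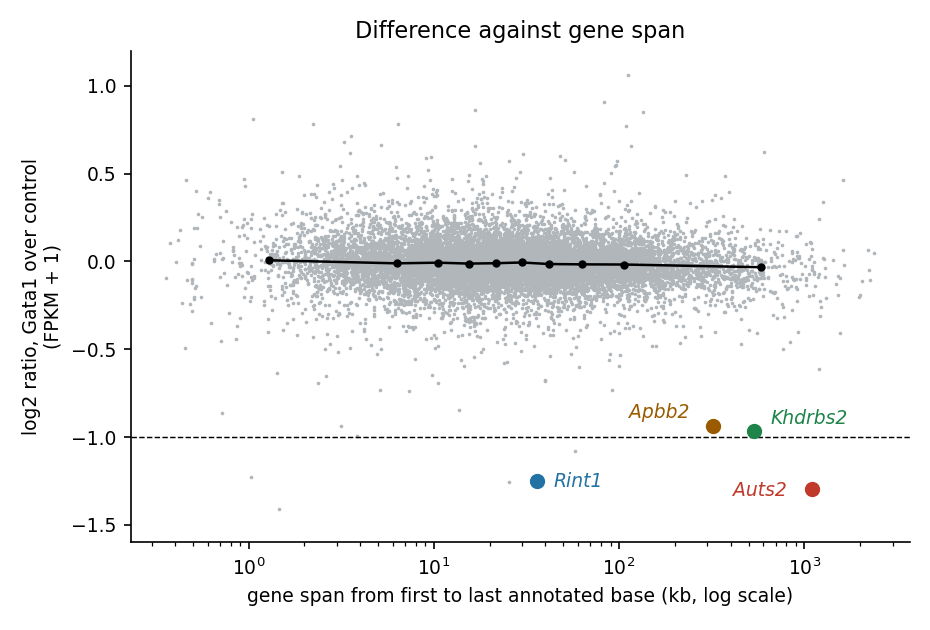
Each point is an annotated named gene, with its span on a log axis against the log2 ratio of Gata1 over control, and the line joins the medians of 10 groups by span. Dlx6os1, Gata1 and Hist2h3c1 lie outside the plotted range, and Auts2, Khdrbs2 and Apbb2 lie among the longest genes below the cloud.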

How the data were processed

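The 2 mRNA tables (1 Gata1 and 1 control library) hold FPKM values deposited by the authors, per the file headers. Per the submitters' processing notes, the tools include TopHat2 2.1.1 with Cufflinks 2.1.1, and Cuffdiff 2.1.1, and the builds mm9 and mm10, with no role for each. Whether libraries were scaled to each other is not stated. Of 40993 rows, 6 without a symbol (0.0113% of the Gata1 and 0.0122% of the control sum) were left out, and the highest-mean row of a symbol was kept. No whole-fragment steps were found among low values: at most 43 of 1283 rows that were above 0 but below 0.1 FPKM in each library had a common log2 ratio (tolerance 0.02), so depth is unknown.

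For each gene log2((Gata1 FPKM + 1)/(control FPKM + 1)) was computed in Python 3.11.15 with pandas 2.3.3, and genes whose mean reached 1 FPKM were compared. With 1 library per group there was no test and no error. The members and lists were chosen with earlier results of these data known. The genes named are the members, the partner genes with the largest ratios and closest roles in each list, overlapping and neighbouring genes, the genes nearest in log2 ratio, those next in the order of falls, and Gata1. Nkain2 and Hist2h3c1 were named after their values were seen. Tubb3 and Apbb3 were on the lists and were not analysed here, and some other listed genes are not reported here. The small RNA, chromatin and input samples were not used here.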

Additional observations from a re-analysis of the deposited data

How the results depend on the processing

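The alternative runs were other pseudocounts, scaling to the median ratio or the upper quartile, summed rows, and no pseudocount, which was chosen after seeing the data. The 4 members kept their direction in all of them, but this is not a check. A pseudocount cannot turn the direction of a ratio, and with 1 row per member the summed rows repeat the main values. The scaling ratios, 0.990 and 0.995, were too small a change to turn differences of this size. Scaling moved the median of all genes by under 0.1 on the log2 scale, and with scaling or summed rows no member changed side of 2-fold. The pseudocount alone moved values by over 0.1 or across 2-fold. With 5 FPKM added the log2 ratios were -1.04 for Auts2, -0.92 for Rint1, -0.55 for Khdrbs2 and -0.69 for Apbb2. With 0.1 FPKM added they were -1.37 for Rint1, -1.17 for Khdrbs2 and -1.02 for Apbb2, and with none -1.38 for Rint1, -1.20 for Khdrbs2 and -1.03 for Apbb2. So Khdrbs2 and Apbb2 pass 2-fold only with a small pseudocount, and Rint1 does not pass it with 5 FPKM.

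Against 7 named genes at least 2-fold lower and 5 at least 2-fold higher, the counts were 17 lower and 16 higher with 0.1 FPKM added, 2 lower and 0 higher with 5 FPKM, 3 lower and 2 higher at a minimum mean of 5 FPKM, and 39 lower and 32 higher over all genes with a symbol. No paired analysis was possible because each group holds 1 library with no replicate number. For the same reason no library could be left out, and unknown depth allows no counting interval.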

Other observations

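Chromosome 5 holds 3 of the 4 members, and its other named genes were examined after their values were seen. Of 787 annotated named genes on it, 7 (0.889%) had a Gata1 value at least 1.5-fold lower on the log2 scale. Of all 12246 named genes 28 did, with the 4 members among them. Besides Auts2, Rint1 and Apbb2 the 7 on chromosome 5 were Morn3, Rpl37rt, Stag3, a cohesin subunit gene of meiosis, and Chic2. Morn3 and Rpl37rt were near the floor, at 0.616 and 0.590 FPKM in the Gata1 library and 1.90 and 1.65 FPKM in the control library. Stag3 stood at 4.24 FPKM in the Gata1 library and 7.40 FPKM in the control library, and Chic2 at 8.04 FPKM in the Gata1 library and 13.4 FPKM in the control library. The median log2 ratio of the chromosome was -0.023. Without the members, which were chosen for their low values, 4 of 784 genes (0.510%) on chromosome 5 were that low, beside 4 of 721 (0.555%) on chromosome 1. These were the highest such shares of any chromosome, followed by 3 of 600 (0.5%) on chromosome 6. Several other chromosomes, among them chromosome 2 with 993 genes, had none. No test was made.

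Among the 419 other named genes at least as long as Apbb2, the 6 with the lowest log2 ratios were Nkain2, Mdga2, Phactr1, Sugct, Pcdh15 and B3galt1, named after their values were seen. Nkain2, given above, was the only one of the 419 that was at least 1.5-fold lower on the log2 scale. Mdga2, a synaptic adhesion regulator gene, stood at 6.00 FPKM in the Gata1 library and 8.90 FPKM in the control library. Phactr1, an actin and phosphatase regulator gene, stood at 19.9 FPKM in the Gata1 library and 27.9 FPKM in the control library. The log2 ratios were -0.46 for Sugct, -0.41 for Pcdh15 and -0.41 for B3galt1.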
